A study of Mus musculus with 4 samples.

Results

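The genes described here are 10 transcripts of the circadian clock, a list of named genes taken with no threshold on their values. They are the activators Arntl, Clock and Npas2, the period genes Per1, Per2 and Per3, the cryptochromes Cry1 and Cry2, and the output factors Dbp and Tef. All 10 were among the 22298 genes listed, and 9 of them were tested, since Npas2 lay below the filter on low values. The hepatocytes came from wild-type male C57BL/6 mice, bought at 8 weeks of age and kept on a methionine- and choline-deficient (MCD) diet for 6 weeks, which produces steatohepatitis. One group received tamoxifen, a drug that binds estrogen receptors, at 100 mg/kg into the peritoneum on 5 days, and the other group received vehicle. Every mouse, controls included, was on the diet, and the study's general rule was to pair-feed treated mice with their controls. Each group has 2 libraries of mRNA, sampled on day 5, and nothing in the labels tells whether they came from separate mice. P-values here therefore measure only the spread between these libraries. The animals lived in a cycle of 12 h light and 12 h dark. The hour at which livers were taken was not stated in what was read here, so a difference in hour and a difference in treatment cannot be told apart.

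The clock of a liver cell is a transcriptional loop that takes about a day. BMAL1, the protein of Arntl, pairs with CLOCK or with its relative NPAS2 and activates genes through E-box sequences, among them the Per and Cry genes, Dbp and the REV-ERB genes Nr1d1 and Nr1d2. PER and CRY proteins then return to the nucleus and block the activators. REV-ERB and ROR proteins compete at ROR elements and so set the rhythm of Arntl, while DBP, TEF and HLF act on D-box sequences. In livers of mice kept in light and dark, Arntl, Clock and Npas2 transcripts peak around the start of the light phase, and those of Dbp and the Per genes peak from the later light phase to dusk. The levels of these genes thus change through the day in opposite directions.

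Promoters of 9 of the 10 genes were matched in RefSeq (GRCm38.p6), as windows from 250 bases before to 50 bases after a start site, and Per2 was not matched. Exact matches on both strands were sought for the E-box CACGTG, the D-box TTATGTAA or TTACGTAA, the ROR element TAGGTCA or TGGGTCA, and the cAMP element TGACGTCA. Of the 32851 mouse windows, 7.15% held an E-box, 1.06% a D-box, 6.45% a ROR element and 1.79% a cAMP element. Of the 9 genes with a window 5 held a match to any of these motifs, and Clock, Npas2, Cry2 and Dbp held none. The share of all genes with a match to any of the motifs was not computed. No matches overlapped each other. The stretches are shown because they hold the letters through which the loop described above is known to run, with the matches in capitals, 5′ to 3′ on the strand of the gene. Per3 (chr4:151044806-151044885, minus strand) held 2 D-boxes, which 0.0244% of all windows did. Per1 (chr11:69098759-69098808), Cry1 (chr10:85185090-85185139, minus strand) and both Tef windows (chr15:81802523-81802572 and chr15:81811254-81811303) held an E-box each. Arntl (chr7:113207530-113207559) held a ROR element that began at base 31 after the second of its start sites. A match is a description of the sequence and does not show that a factor was bound.
Per3: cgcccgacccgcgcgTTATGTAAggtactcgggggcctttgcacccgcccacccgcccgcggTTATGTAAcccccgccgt
Per1: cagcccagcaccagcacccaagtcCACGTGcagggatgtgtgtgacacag
Cry1: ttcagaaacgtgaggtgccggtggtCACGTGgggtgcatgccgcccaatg
Tef, upstream start: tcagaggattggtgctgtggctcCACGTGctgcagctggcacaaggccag
Tef, downstream start: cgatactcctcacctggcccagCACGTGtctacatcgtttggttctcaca
Arntl: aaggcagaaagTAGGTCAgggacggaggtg

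Levels are FPKM, fragments scaled to transcript length and to the mapped total, as the authors calculated them. The spacing of the lowest values corresponded to between 16700000 fragments in tamoxifen 2 and 20800000 in vehicle 1. Tests used limma on log2(FPKM + 1) with Benjamini-Hochberg adjustment over 11633 genes, and a gene was called at an adjusted p under 0.05. Fold changes on that scale understate the changes of low genes. Over all genes tested the median log2 fold change came to -0.60, or to 0.06 after rescaling by median ratios and 0.09 after quantile normalization, so the direction of a small change depends on the scaling. Hepatocyte markers summed to between 35400 and 47300 FPKM in vehicle and between 65100 and 69200 FPKM in tamoxifen, with Alb, which encodes albumin, the highest of them. Of 8 hepatocyte markers 3 were called higher and 0 lower, with a median log2 fold change of 0.81. Of 8 markers of Kupffer cells and macrophages 8 fell, with sums of 686 and 1310 FPKM in vehicle and of 64.0 and 114 FPKM in tamoxifen. Of 6 markers of liver endothelium 6 fell, and of 7 markers of stellate cells and fibroblasts 7 fell, the latter from sums of 352 and 598 FPKM to sums of 29.7 and 46.9 FPKM. Of 3 tested markers of cholangiocytes 2 fell, of 3 of neutrophils 1 fell, and the 1 tested marker of lymphocytes fell. Of all genes tested 46.7% were called lower and 4.31% higher. Vehicle 2 also held pancreatic acinar transcripts, which summed to 878 FPKM there, to 32.9 FPKM in tamoxifen 2 and to at most 1.24 FPKM in the other libraries. Whether clock transcripts of those other cells took part in the results was not tested, and in bulk RNA fewer cells of a type and less RNA per cell cannot be told apart.

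Among the 10 clock genes, Cry2 rose after tamoxifen, Clock fell for values as deposited, 7 did not pass the threshold and Npas2 was not tested. Thus 1 of 9 tested genes was called lower, against 46.7% of all genes tested, and 1 of 9 was called higher, against 4.31% of all genes tested. In either direction that is 2 of 9, against 51.0% of all genes tested. The median log2 fold change of the 9 genes was -0.04, against -0.60 for all genes tested. After rescaling by median ratios 3 clock genes were higher (16.6% of all genes were) and 0 were lower (19.4% of all genes were). After quantile normalization 4 were higher (13.4% of all genes) and 0 were lower (13.7% of all genes). The groups did not overlap for Clock and Npas2, which were lower in both tamoxifen libraries (71.9% of all genes tested were), and for Cry2 and Tef, which were higher in both (9.48% of all genes tested were). With 2 libraries against 2, an exact permutation test of a single gene cannot go below a two-sided p of 0.333.

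**Figure D1:**
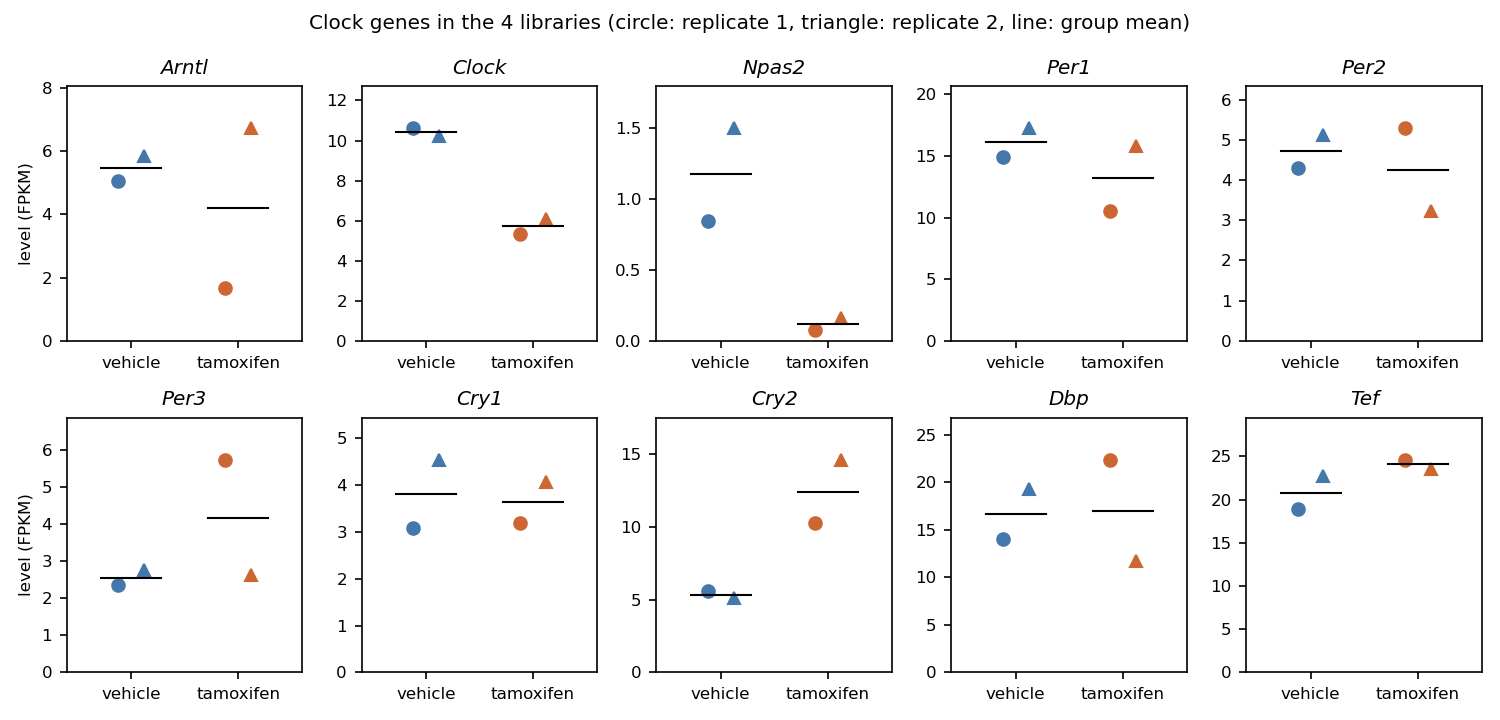
Level in FPKM (vertical axis, from 0, scaled for each gene) of the 10 clock genes in the vehicle and tamoxifen libraries. Circles are replicate 1, triangles replicate 2 and lines the group means. Clock and Npas2 are lower and Cry2 is higher in both tamoxifen libraries, while the tamoxifen libraries lie far apart for Arntl, Per3 and Dbp.

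The activators were lower in tamoxifen 1 than in either vehicle library. Clock (ENSMUSG00000029238, chr5:76209868-76304792 in GRCm38, GENCODE M21) encodes the DNA-binding partner of BMAL1. It was at 10.6 and 10.23 FPKM in vehicle 1 and 2 and at 5.33 and 6.08 FPKM in tamoxifen 1 and 2. The libraries of each group lay close together and the groups did not overlap, with means of 10.4 ± 0.262 FPKM and 5.71 ± 0.530 FPKM (SD, n = 2 libraries each). On the log2 scale the change was -0.77 (limma adjusted p = 0.0196, standard error, SE, 0.21), close to the median of all genes. After rescaling by median ratios it was -0.06 (limma adjusted p = 0.822) and after quantile normalization -0.02 (limma adjusted p = 0.961). The call was also lost without vehicle 2 (-0.79, limma adjusted p = 0.0546), without tamoxifen 1 (-0.69, adjusted p = 0.150) and without tamoxifen 2 (-0.85, adjusted p = 0.0978).

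Npas2 (ENSMUSG00000026077, chr1:39193731-39363236) encodes the relative of CLOCK that can take its place beside BMAL1. It was at 0.85 and 1.5 FPKM in vehicle 1 and 2 and at 0.08 and 0.16 FPKM in tamoxifen 1 and 2, so that the vehicle mean was 9.79 times the tamoxifen mean. At the length of its longest annotated transcript these levels correspond to about 75 fragments in vehicle 1 and to about 6 and 11 in tamoxifen 1 and 2. Both tamoxifen libraries were lower than both vehicle libraries, but the vehicle libraries differed from each other as well. It reached 1 FPKM in 1 library only and therefore was not tested. Without a filter on low values its log2 fold change was -0.94 (limma adjusted p = 0.0309, SE 0.17), and of all genes so tested 27.4% were lower and 2.18% higher. Clock and Npas2 were then the lower clock genes and Cry2 the higher one. That scale adds 1 to each FPKM and so compresses a gene as low as Npas2.

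Arntl (ENSMUSG00000055116, chr7:113207465-113314126), the gene of BMAL1, was at 5.06 and 5.84 FPKM in vehicle 1 and 2, at 1.67 FPKM in tamoxifen 1 and at 6.71 FPKM in tamoxifen 2. The tamoxifen libraries thus lay on either side of the vehicle libraries, and the level of tamoxifen 2 was 4.02 times that of tamoxifen 1. The fit over the groups gave a log2 fold change of -0.50 (limma adjusted p = 0.368, SE 0.45), which turned to 0.14 after rescaling by median ratios and to 0.34 after quantile normalization. It was 0.26 without tamoxifen 1 (limma adjusted p = 0.590) and -1.27 without tamoxifen 2 (limma adjusted p = 0.0368). A group mean does not describe Arntl in these tamoxifen libraries.

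The period genes encode the repressors that the activators induce. Per1 (chr11:69095217-69109960) had the highest level of them, at 14.95 and 17.23 FPKM in vehicle 1 and 2 and at 10.54 and 15.81 FPKM in tamoxifen 1 and 2. The groups overlapped, and its log2 fold change was -0.29 (limma adjusted p = 0.342, SE 0.25), or 0.45 after rescaling by median ratios and 0.33 after quantile normalization. Per2 (chr1:91415982-91459324) was at 4.29 and 5.12 FPKM in vehicle 1 and 2, at 5.28 FPKM in tamoxifen 1 and at 3.24 FPKM in tamoxifen 2. Here too the tamoxifen libraries enclosed the vehicle libraries, but tamoxifen 1 was the higher of them, the reverse of Arntl. Its log2 fold change was -0.14 (limma adjusted p = 0.672, SE 0.27), or 0.51 after rescaling by median ratios and 0.69 after quantile normalization, and did not pass. Per3 (chr4:151003652-151044665) was at 2.35 and 2.76 FPKM in vehicle 1 and 2, at 5.74 FPKM in tamoxifen 1 and at 2.62 FPKM in tamoxifen 2. Only tamoxifen 1 stood above the other 3 libraries, whose levels lay between 2.35 and 2.76 FPKM. The log2 fold change of Per3 was 0.48 (limma adjusted p = 0.241, SE 0.32). It passed the threshold after rescaling by median ratios (1.07, limma adjusted p = 0.0345) and after quantile normalization (1.34, limma adjusted p = 0.0240), although 1 library carried the higher level.

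The cryptochromes encode the partners of the PER proteins and strong repressors of the activators. Cry2 (ENSMUSG00000068742, chr2:92403646-92434043) was at 5.60 and 5.09 FPKM in vehicle 1 and 2 and at 10.24 and 14.6 FPKM in tamoxifen 1 and 2. Both tamoxifen libraries were well above both vehicle libraries, with means of 12.4 ± 3.08 FPKM after tamoxifen and 5.34 ± 0.361 FPKM after vehicle (SD, n = 2 libraries each), a ratio of 2.32. On the log2 scale the change was 1.06 (limma adjusted p = 0.00985, SE 0.24), 1.67 above the median of all genes tested. It stayed past the threshold after rescaling by median ratios (1.76, limma adjusted p = 0.00451) and after quantile normalization (1.80, limma adjusted p = 0.00927). The call was lost without vehicle 2 (1.00, limma adjusted p = 0.0566) and without tamoxifen 2 (0.83, limma adjusted p = 0.115).

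Cry1 (chr10:85131700-85185064), which shares the repressor role, was at 3.07 and 4.53 FPKM in vehicle 1 and 2 and at 3.19 and 4.07 FPKM in tamoxifen 1 and 2. The levels of both groups covered the same range, and its log2 fold change was -0.04 (limma adjusted p = 0.900, SE 0.26). It was 0.59 after rescaling by median ratios and 0.82 after quantile normalization, where it passed the threshold (limma adjusted p = 0.0300). A ratio of 2 genes in the same library does not depend on how that library was scaled. The log2 ratio of Cry2 to Cry1, chosen after the values were seen, was 0.87 and 0.17 in vehicle 1 and 2 and 1.68 and 1.84 in tamoxifen 1 and 2. Cry2 was thus higher relative to Cry1 in both tamoxifen libraries, whatever the scaling.

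Dbp and Tef encode transcription factors that carry the rhythm to genes of metabolism through the D-box. Dbp (chr7:45705088-45710203) was at 14.03 and 19.32 FPKM in vehicle 1 and 2, at 22.34 FPKM in tamoxifen 1 and at 11.74 FPKM in tamoxifen 2. As with Per2, the tamoxifen libraries lay outside the vehicle libraries on either side, with tamoxifen 1 the higher. Its log2 fold change was -0.02 (limma adjusted p = 0.962, SE 0.32), or 0.73 after rescaling by median ratios and 0.56 after quantile normalization, and neither passed the threshold. Exons of Dbp overlap those of Sphk2, a sphingosine kinase on the other strand, and the sources used here do not say whether reads were counted by strand. Sphk2 was at 11.66 and 10 FPKM in vehicle and at 5.97 and 6.76 FPKM in tamoxifen 1 and 2, without the gap between the tamoxifen libraries that Dbp had. Exons of Arntl, Cry2 and Tef overlap noncoding genes that have no values here.

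Tef (chr15:81802421-81826863) was the most abundant of the 10 clock genes in every library, at 18.88 and 22.73 FPKM in vehicle 1 and 2 and at 24.59 and 23.59 FPKM in tamoxifen 1 and 2. The groups did not overlap, but the gap between them was smaller than the difference between the vehicle libraries. Its log2 fold change was 0.21 (limma adjusted p = 0.412, SE 0.20). After rescaling by median ratios it was 0.97 (limma adjusted p = 0.00811) and after quantile normalization 0.74 (limma adjusted p = 0.0316). In order of mean FPKM over the 4 libraries, Tef at 22.4 was followed by Dbp at 16.9, Per1 at 14.6, Cry2 at 8.88 and Clock at 8.06, then by Arntl at 4.82, Per2 at 4.48, Cry1 at 3.71, Per3 at 3.37 and Npas2 at 0.648. Neighbours in this order had overlapping ranges over the libraries, apart from Per3 and Npas2, and their order was not tested.

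**Figure D2:**
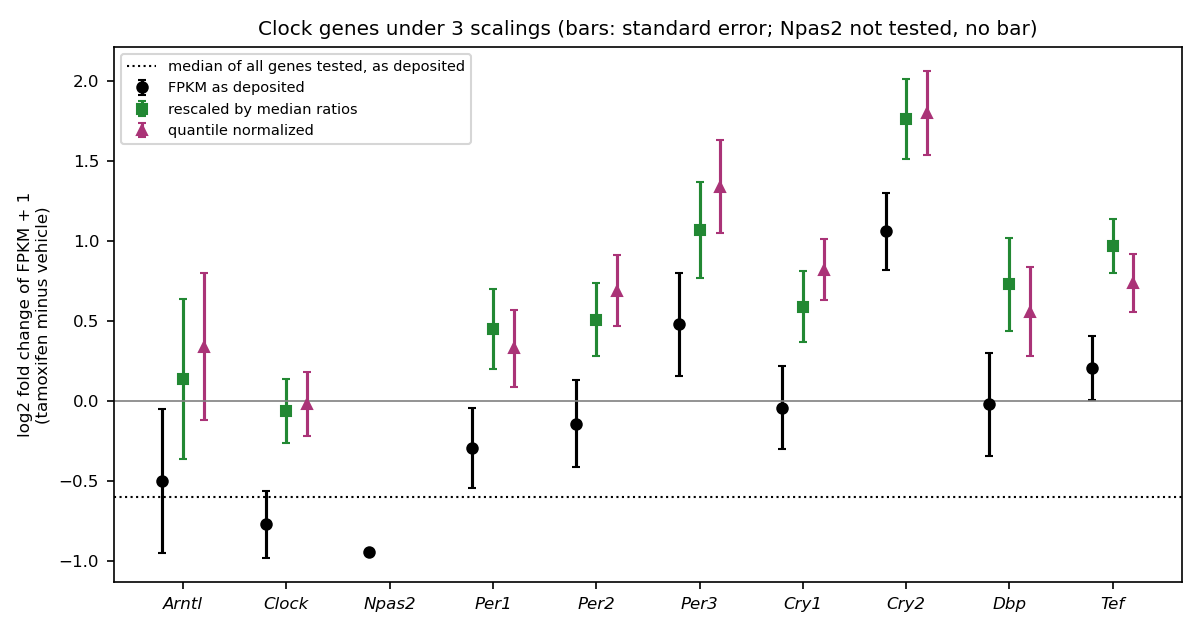
Log2 fold change of FPKM + 1, tamoxifen minus vehicle (vertical axis), of each clock gene for values as deposited, rescaled by median ratios and quantile normalized, with standard errors from limma. The dotted line is the median of all genes tested for values as deposited, -0.60. Cry2 is the only gene above 0 by more than 1 for all 3 scalings, Clock lies close to 0 after rescaling, and Npas2, which was not tested, has a point without a bar.

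The libraries of the tamoxifen group differed from each other in the clock genes. On log2(FPKM + 1), Arntl was lower in tamoxifen 1 than in tamoxifen 2 by 1.53, and 0.696% of all genes tested differed by as much. Per3 was higher in tamoxifen 1 by 0.90 and Dbp by 0.87, and 2.78% and 2.99% of all genes tested differed by as much. Arntl and the pair of Dbp and Per3 thus went opposite ways between libraries of the same treatment. Of the 9 tested clock genes 3 differed by more than 1.5-fold, against 8.36% of all genes tested. Per2 was higher in tamoxifen 1 by 0.57, and Per1 and Cry2 were 0.54 and 0.47 lower there. Clock, Cry1 and Tef differed by at most 0.28. Npas2 differed by 0.10 on this compressed scale, while its FPKM in tamoxifen 2 was 2.0 times that in tamoxifen 1. Between the vehicle libraries 0 of 9 clock genes differed by more than 1.5-fold, against 19.8% of all genes tested, and the largest differences, in Cry1 and Dbp, were 0.44. Each of these comparisons sets 1 library against another, so it has no test. The tamoxifen libraries were alike in depth, at about 17800000 and 16700000 fragments.

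**Figure D3:**
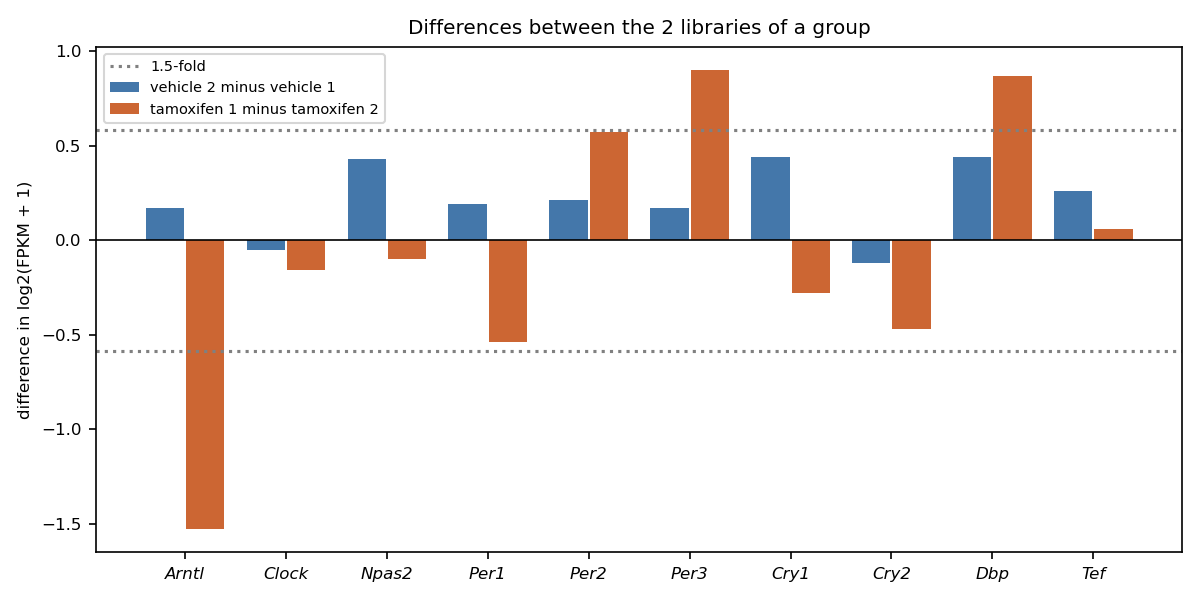
Difference in log2(FPKM + 1) between the libraries of a group (vertical axis) for each clock gene, as vehicle 2 minus vehicle 1 and tamoxifen 1 minus tamoxifen 2. Dotted lines mark a 1.5-fold difference on that scale. Arntl at -1.53 and Per3 and Dbp at 0.90 and 0.87 lie beyond them on opposite sides, and no difference between the vehicle libraries does.

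Ratios within a library show the same without a choice of scaling. The log2 ratio of Arntl to Dbp was -1.47 and -1.73 in vehicle 1 and 2, -3.74 in tamoxifen 1 and -0.81 in tamoxifen 2. That of Arntl to Per3 was 1.11 and 1.08 in vehicle 1 and 2, -1.78 in tamoxifen 1 and 1.36 in tamoxifen 2. In all 5 ratios of Arntl to Dbp, Tef, Per1, Per2 and Per3, tamoxifen 1 lay below both vehicle libraries and tamoxifen 2 above both. The vehicle libraries differed in them by at most 0.25, and the tamoxifen libraries by 1.42 to 3.14. The mean difference in the ratio of Arntl to Dbp, -0.68, would be 0.79 without tamoxifen 1 and -2.14 without tamoxifen 2.

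Clock and Npas2 behaved differently. In all 5 ratios of Clock to those genes both tamoxifen libraries lay below both vehicle libraries, and the same held for all 5 ratios of Npas2. The log2 ratio of Clock to Tef was -0.83 and -1.15 in vehicle 1 and 2 and -2.21 and -1.96 in tamoxifen 1 and 2. That of Npas2 to Per1 was -4.14 and -3.52 in vehicle 1 and 2 and -7.04 and -6.63 in tamoxifen 1 and 2. Ratios of Cry1 overlapped between the groups in 5 of 5 cases. For Clock to Dbp the gap was narrow, from -0.92 in vehicle 2 to -0.95 in tamoxifen 2. The low level of Clock and Npas2 relative to the output and period genes was thus shared by both tamoxifen libraries, and that of Arntl was a feature of tamoxifen 1. The log2 fold change of Clock, -0.77, was near the median of -0.60 for all genes tested. Those of Dbp, Tef and the Per genes lay 0.31 to 1.08 above that median. Of all genes tested 71.9% were lower in both tamoxifen libraries, and their ratios to these 5 genes were not computed. The ratios share genes and libraries and are given without a test.

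**Figure D4:**
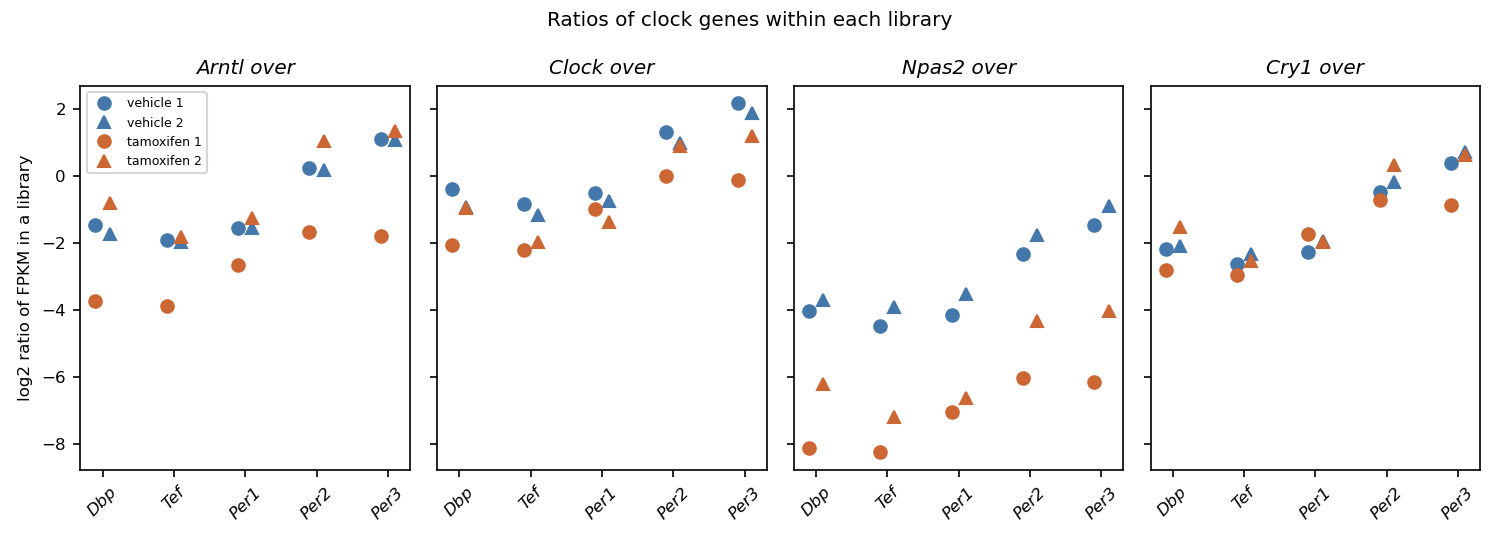
Log2 ratio of FPKM within a library (vertical axis) of Arntl, Clock, Npas2 and Cry1, each over the 5 genes on the horizontal axis. Circles are replicate 1 and triangles replicate 2, with vehicle in blue and tamoxifen in orange. For Arntl the tamoxifen libraries lie on both sides of the vehicle libraries, and for Clock and Npas2 both lie below them.

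The second loop of the clock and the factors that oppose its output were read beside the 10 genes. Of 8 genes of the nuclear receptor and bHLH loop 7 were tested, of which 2 fell, 1 rose and 4 did not pass, where 46.7% of all genes tested were lower and 4.31% higher. Their median log2 fold change was -0.43, against -0.60 for all genes tested. After median ratios 1 was lower and 1 higher (19.4% and 16.6% of all genes), with a median of 0.33 against 0.06. After quantile normalization 0 were lower and 1 higher (13.7% and 13.4% of all genes), with a median of 0.29 against 0.09. Rorb, a ROR gene of the brain, was listed at 0 in every library. Ciart, a repressor of BMAL1 that the clock itself induces, was at 4.83 and 4.15 FPKM in vehicle 1 and 2 and at 12.68 and 17.44 FPKM in tamoxifen 1 and 2. It rose by 1.54 (limma adjusted p = 0.00241, SE 0.24), the groups did not overlap, and it stayed called under each of 11 alternatives, with limma adjusted p of at most 0.0269. Its promoter (chr3:95882259-95882358, minus strand, GRCm38.p6) is shown because it holds 3 E-boxes, in capitals, which 0.0883% of all windows do.
Ciart: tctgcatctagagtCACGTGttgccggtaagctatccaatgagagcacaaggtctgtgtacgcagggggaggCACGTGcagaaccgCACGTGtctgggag

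Bhlhe41 and its relative Bhlhe40 encode repressors that compete for E-boxes. Bhlhe41 was at 2.96 and 5.73 FPKM in vehicle 1 and 2 and at 0.71 and 0.35 FPKM in tamoxifen 1 and 2. It fell by 1.76 on the log2 scale (limma adjusted p = 0.00394, SE 0.31), or by 0.83 after quantile normalization, where it did not pass (limma adjusted p = 0.0521). Ciart and Bhlhe41 thus moved in opposite directions for values as deposited, and the window of each holds an E-box. Bhlhe40 was at 60.87 and 70.26 FPKM in vehicle and at 42.16 and 30.5 FPKM in tamoxifen, and its fall of 0.85 (limma adjusted p = 0.0189) was lost after rescaling by median ratios (-0.07, limma adjusted p = 0.820) and quantile normalization (-0.47, adjusted p = 0.121). It was also lost without vehicle 2 (-0.75) and without tamoxifen 2 (-0.62). Nr1d1, the gene of REV-ERB alpha, was at 36.21 and 37.88 FPKM in vehicle 1 and 2, at 21.53 FPKM in tamoxifen 1 and at 33.89 FPKM in tamoxifen 2, and did not pass (log2 fold change -0.44, limma adjusted p = 0.173, or 0.33 after median ratios and 0.04 after quantile normalization). Nr1d1 was thus low in the same library as Arntl, the gene that REV-ERB alpha represses, and a link between these transcript levels was not tested. Its relative Nr1d2 varied little, between 23.33 and 28.37 FPKM over the libraries (log2 fold change -0.22, or 0.55 after rescaling by median ratios and 0.29 after quantile normalization).

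Nfil3 encodes a repressor of D-box genes and was at 8.15 and 9.34 FPKM in vehicle 1 and 2 and at 13.25 and 14.03 FPKM in tamoxifen 1 and 2. Its rise of 0.59 (limma adjusted p = 0.0456) was near the threshold and was kept under 5 of 11 alternatives, with adjusted p of up to 0.247. It was 1.32 after median ratios (limma adjusted p = 0.00402) and 1.27 after quantile normalization (limma adjusted p = 0.00922). It lost the call with sample weights, without a filter and without each of vehicle 1, vehicle 2, tamoxifen 1 and tamoxifen 2, at 0.50 to 0.68. Hlf, the third D-box activator beside Dbp and Tef, was at 4.76 and 3.45 FPKM in vehicle 1 and 2, at 9.07 FPKM in tamoxifen 1 and at 4.65 FPKM in tamoxifen 2. Like Per3, Hlf was high in tamoxifen 1 alone, and it did not pass (log2 fold change 0.58, limma adjusted p = 0.161). It passed after median ratios (1.23, limma adjusted p = 0.0261) and after quantile normalization (1.37, limma adjusted p = 0.0334).

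Genes were also read by the time of day at which their transcripts are known to peak in mouse liver. Of 5 genes that peak from the late night to the early light phase (Arntl, Npas2, Clock, Nfil3 and Cry1) 4 were tested, of which 1 fell and 1 rose, with a median log2 fold change of -0.27. Of 12 genes that peak from the light phase to dusk 2 fell, 2 rose and 8 did not pass, with a median of -0.08. Of all genes tested 46.7% were lower and 4.31% higher, with a median of -0.60. Quantile normalization gave 2 higher and 0 lower among the 4, with a median of 0.58. Among the 12 it gave 5 higher and 0 lower, with a median of 0.63. Of all genes 13.4% were then higher and 13.7% lower, with a median of 0.09. Between the tamoxifen libraries, the 4 tested genes of the first list were all lower in tamoxifen 1, with a median difference of -0.22. Of the 12 genes of the second list 7 were higher and 5 lower in tamoxifen 1. Of all 11633 genes tested 6693 were higher and 4866 lower there, with a median of 0.05. In direction the second list was thus split much as other genes were, but its median difference was 0.20. By more than 1.5-fold, 4 of the 12 were higher and 1 lower in tamoxifen 1, against 622 and 351 of the 11633. The higher ones included Wee1, a mitotic kinase, at 2.40 FPKM in tamoxifen 1 and 0.82 FPKM in tamoxifen 2.

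Kinases, ubiquitin ligases and cofactors that modify clock proteins were called lower about as often as other genes. Of 22 genes 22 were tested, 11 fell and 0 rose, where 46.7% of all genes tested were lower and 4.31% higher, and the median log2 fold change was -0.68 against -0.60 for all genes. After quantile normalization 1 was lower and 0 were higher, with a median of -0.02, and rescaling by median ratios gave 3 lower and 1 higher. Leaving out vehicle 1, vehicle 2, tamoxifen 1 or tamoxifen 2 gave 11, 8, 6 and 7 lower. Csnk1e, the casein kinase 1 epsilon that marks PER proteins for degradation, stood apart. It was at 13.07 and 19.05 FPKM in vehicle 1 and 2 and at 2.48 and 3.89 FPKM in tamoxifen 1 and 2. It fell by 2.03 (limma adjusted p = 0.00162, SE 0.28), or by 1.28 after quantile normalization, and stayed called under each of 11 alternatives. Its relative Csnk1d, which shares that role and was named after its value was seen, went from 26.04 and 31.5 FPKM to 13.95 and 17.07 FPKM (log2 fold change -0.85, limma adjusted p = 0.0151). It was at -0.09 after rescaling by median ratios and at -0.31 after quantile normalization and did not pass (limma adjusted p = 0.752 and 0.293). Cipc, which encodes an inhibitor of CLOCK, fell by 1.29 (limma adjusted p = 0.00370) and Prkaa1, a catalytic subunit of AMP-activated kinase, by 1.25 (limma adjusted p = 0.00420). After quantile normalization they were at -0.58 and -0.46 and did not pass (limma adjusted p = 0.0591 and 0.0962). The most abundant, Csnk2b, a subunit of casein kinase 2, had a log2 fold change of -0.37 that did not pass, and Nono, a partner of PER proteins, fell by 1.11 (limma adjusted p = 0.00517). Nono did not pass after either rescaling (-0.34 and -0.66, limma adjusted p = 0.181 and 0.0508), and Csnk2b turned to 0.41 after median ratios.

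**Figure D5:**
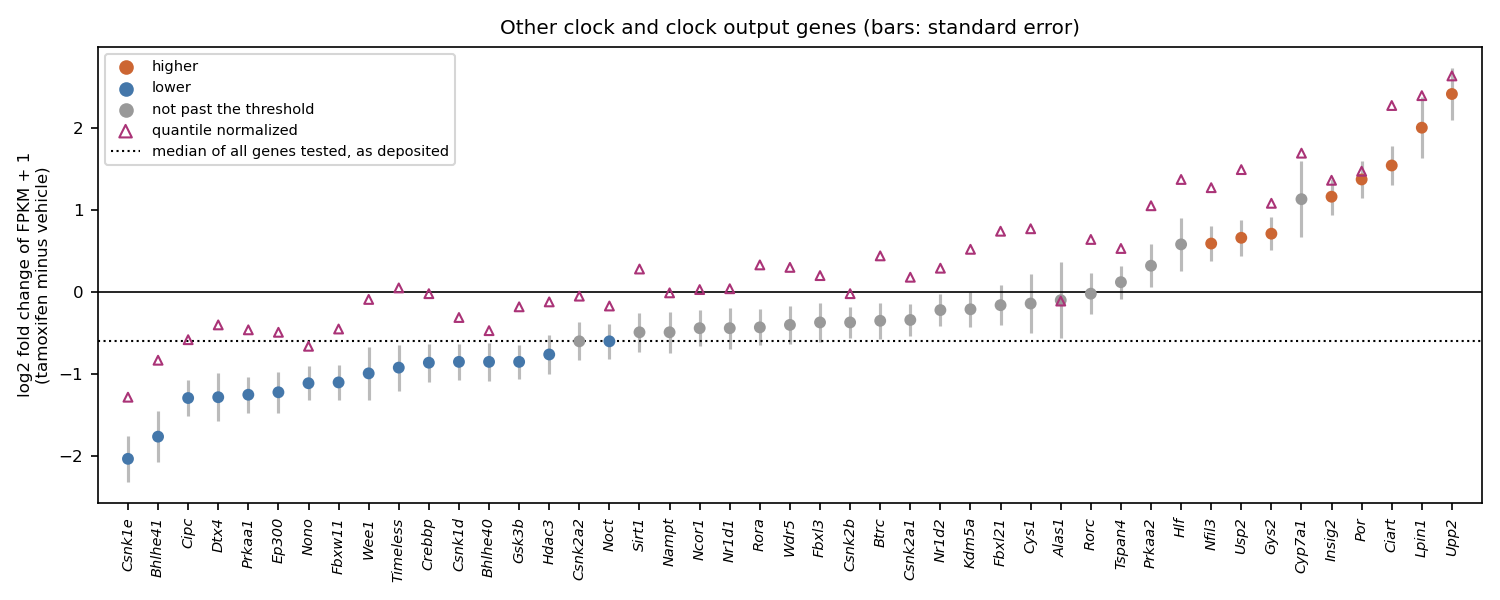
Log2 fold change of FPKM + 1, tamoxifen minus vehicle (vertical axis), of 45 further clock and clock output genes in order of size, with standard errors from limma. Orange, blue and grey points are higher, lower and not past an adjusted p of 0.05, triangles are values after quantile normalization, and the dotted line is the median of all genes tested. Csnk1e and Bhlhe41 are the lowest and Ciart, Lpin1 and Upp2 the highest.

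Of 15 rhythmic genes of liver metabolism and growth 14 were tested, of which 6 rose, 3 fell and 5 did not pass, where 4.31% of all genes tested were higher and 46.7% lower. Their median log2 fold change was 0.39, against -0.60 for all genes tested. After quantile normalization 6 were higher and 0 lower, where 13.4% and 13.7% of all genes were. Leaving out vehicle 2 gave 3 higher and 1 lower, and leaving out tamoxifen 2 gave 4 higher and 1 lower. Upp2, a uridine phosphorylase, was at 42.97 and 52.15 FPKM in vehicle 1 and 2 and at 182.25 and 357.56 FPKM in tamoxifen 1 and 2 (log2 fold change 2.41, limma adjusted p = 0.00157, SE 0.32). Lpin1, a phosphatidate phosphatase that also acts as a coactivator, was at 26.49 and 19.44 FPKM and at 62.46 and 140.23 FPKM in the same order. It rose by 2.0 and passed under 10 of 11 alternatives, the exception being vehicle 2 left out (1.78, limma adjusted p = 0.0580). Both were higher in tamoxifen 2 than in tamoxifen 1, the reverse of Dbp. Por, the reductase that supplies electrons to cytochromes P450, rose by 1.37 (limma adjusted p = 0.00288). Usp2, a deubiquitinase, rose by 0.66 (limma adjusted p = 0.0404), and did not pass without vehicle 2, tamoxifen 1 or tamoxifen 2 (0.58 to 0.74). It was 1.3 after median ratios and 1.49 after quantile normalization (limma adjusted p = 0.00634 and 0.0104).

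Dtx4, a Notch regulator, fell by 1.28, Wee1 by 0.99 and Noct, a phosphatase of nicotinamide cofactors, by 0.60. Each call was lost after quantile normalization, where they were at -0.40, -0.09 and -0.17, and Noct turned to 0.17 after median ratios. Wee1 and Noct did not pass without vehicle 1 (-0.97 and -0.69) or without vehicle 2 (-1.0 and -0.52), and Dtx4 did not pass without tamoxifen 1 (-1.13, limma adjusted p = 0.0695). Wee1 was lost without tamoxifen 2 (-0.54, limma adjusted p = 0.305), and Noct without either tamoxifen library (-0.76 and -0.45). Alas1, which starts heme synthesis, was at 373.28 and 247.41 FPKM in vehicle 1 and 2, at 472.14 FPKM in tamoxifen 1 and at 171.2 FPKM in tamoxifen 2, so that the tamoxifen libraries again lay on either side of the vehicle libraries.

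Hormones and body temperature carry time to the liver clock, and 10 genes that answer to them were read last. In this list 3 fell, 2 rose and 5 did not pass, where 46.7% of all genes tested were lower and 4.31% higher. Its median log2 fold change was 0.03, against -0.60 for all genes tested. After median ratios 3 were lower and 4 higher (19.4% and 16.6% of all genes), with a median of 0.79 against 0.06. After quantile normalization 3 were lower and 3 higher (13.7% and 13.4% of all genes), with a median of 0.43 against 0.09. Hspa1b and Hsph1, heat shock chaperones, fell by 2.59 (limma adjusted p = 0.00375, SE 0.45) and 2.28 (limma adjusted p = 0.000569). Hspa1b was at 15.21 and 46.69 FPKM in vehicle 1 and 2 and at 3.32 and 3.95 FPKM in tamoxifen 1 and 2. Its log2 fold change was -3.37 without vehicle 1 and -1.81 without vehicle 2. Sgk1, a kinase that glucocorticoids induce, fell by 2.22 (limma adjusted p = 0.00152). Each of these 3 stayed called under all 11 alternatives. Tat, a tyrosine aminotransferase that glucocorticoids induce, was at 485.34 and 336.21 FPKM in vehicle 1 and 2, at 616.2 FPKM in tamoxifen 1 and at 1614.21 FPKM in tamoxifen 2. Its rise of 1.3 (limma adjusted p = 0.0432) was lost after quantile normalization (0.91, adjusted p = 0.199) and without vehicle 1 (1.57, adjusted p = 0.0873), vehicle 2 (1.04, adjusted p = 0.232) and tamoxifen 2 (0.61, adjusted p = 0.282), and it was 2.1 after median ratios (adjusted p = 0.0243). Fkbp5, a cochaperone of the glucocorticoid receptor, rose by 0.70 (limma adjusted p = 0.0248), and did not pass without each of vehicle 1, vehicle 2, tamoxifen 1 and tamoxifen 2 (0.56 to 0.84). It was 1.47 after median ratios and 1.17 after quantile normalization (limma adjusted p = 0.00428 and 0.0156). Rbm3, a cold-inducible RNA-binding protein, was at 107.67 and 165.92 FPKM in vehicle and at 118.85 and 122.0 FPKM in tamoxifen, with overlapping groups. All 10 genes of this list were lower in tamoxifen 1 than in tamoxifen 2, as were 4866 of all 11633 genes tested. The median difference was -0.38, against 0.05 for all genes tested. Of the 10 genes 4 differed by more than 1.5-fold, Sgk1 and Tat among them, while Hspa1b, Hsph1 and Rbm3 differed by at most 0.20. The library with the lowest Arntl thus also had lower levels of Sgk1 and Tat than the other tamoxifen library. The part of hormones or temperature in the difference was not tested.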

How the data were processed

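Oligo(dT)-enriched RNA of isolated hepatocytes was sequenced in 2 libraries per group. The authors deposited FPKM values, rounded to 2 decimals. Without giving roles, the submitters' processing notes list StringTie 1.3.1, RSEM, HISAT2, Bowtie2 and fastp 0.18.0. Build and annotation were not given in the sources used here. Gene symbols were matched by Ensembl ID to GENCODE M21 (GRCm38), where 43 of 22298 IDs had no symbol. The smallest steps between FPKM values, multiplied by transcript length, gave an estimate of depth, by which the shallowest library had 80.3% of the deepest.

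Genes that reached 1 FPKM in 2 or more libraries were tested as log2(FPKM + 1) with limma 3.58.1 (lmFit, eBayes with trend) in R 4.3.3, a method tested on simulated data. The simulated data had as many raised as lowered genes and no shift of all genes between libraries. They therefore do not show how calls hold under the shift of the median found here. Alternatives were median ratios, quantile normalization, a pseudocount of 0.1, no filter, a mean of at least 5 FPKM, sample weights, the replicate number as a block, each library left out (the lone library then assumed to vary like the other group), and unadjusted p with a 1.5-fold change. The members and lists were chosen with earlier results of these data known. All 10 clock genes are named, and of each other list the 3 largest called changes in each direction and the 2 highest means. Beyond that rule Sphk2 was named for its overlap with Dbp, and Csnk1d after its value was seen. Comparisons between libraries of a group were added after the values were seen. Figures used Python 3.11.15 and matplotlib 3.10.9.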

Additional observations from a re-analysis of the deposited data

How the results depend on the processing

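With median ratios the calls were 2258 lower and 1929 higher, so 53.9% of the calls were lower in place of 91.6%, and after quantile normalization 1595 were lower and 1563 higher (50.5% lower). The main counts were 5432 and 501. With a mean of at least 5 FPKM 3182 genes were lower. Leaving out a library gave 2555 to 5531 lower and 263 to 500 higher. Of the clock genes 1 was lower and 1 higher in limma. The counts were 0 and 3 after rescaling by median ratios and 0 and 4 after quantile normalization, and 2 were lower without a filter. Leaving out a library gave 0 to 1 lower and 0 to 1 higher. Of the 55 tested genes of the other lists 19 were lower and 10 higher, where 46.7% and 4.31% of all genes tested were. After rescaling by median ratios 7 were lower and 16 higher, against 19.4% and 16.6% of all genes. After quantile normalization 4 were lower and 12 higher, against 13.7% and 13.4% of all genes. Leaving out a library gave 12 to 18 lower and 4 to 8 higher.

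Directions turned, after rescaling by median ratios and after quantile normalization in that order, for Arntl (0.14 and 0.34), Per1 (0.45 and 0.33), Per2 (0.51 and 0.69), Cry1 (0.59 and 0.82), Dbp (0.73 and 0.56), Nr1d1 (0.33 and 0.04) and Nr1d2 (0.55 and 0.29). By median ratios alone they turned for Alas1 (0.70), Csnk2b (0.41), Noct (0.17) and Rbm3 (0.64, with 0.00 after quantile normalization). With each library left out in turn, log2 fold changes ran from -1.27 to 0.26 for Arntl, from -0.42 to 0.14 for Per2, from -0.26 to 0.18 for Cry1 and from -0.46 to 0.42 for Dbp. They ran from -0.82 to 0.63 for Alas1 and from -0.46 to 0.16 for Rbm3. Neither clock call kept its side of the threshold under every alternative (6 of 11 for Clock, 9 of 11 for Cry2), and 7 of the 22 called genes that the naming rule gives did. Csnk1d, named beyond that rule, lost its call after both rescalings. The cause of these changes was not tested, beyond the shift of the median of all genes that the rescaling makes.

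Same-numbered libraries share only a number. Their deviations from the group means correlated across genes at 0.283, and with the replicate number as a block 5863 genes were lower and 573 higher, with 1 clock gene lower and 1 higher and 21 and 11 in the other lists. Read counts were not analysed here, and depth limits a gene as low as Npas2 most.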
